A study of Mus musculus with 20 samples.

Results

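The effect of dexamethasone in the mouse hippocampus was estimated over both genotypes of the study together. All 20 of 20 libraries entered: 10 from mice given dexamethasone (Dex) and 10 from mice given phosphate-buffered saline (PBS), with genotype as a covariate. All mice were male C57BL/6, and all had lost their adrenal glands at about 2.5 months of age, which removes the body's own glucocorticoids. Each treatment was given into the peritoneal cavity 2 weeks after that surgery, Dex at 1 mg/kg, and the whole hippocampus was taken 6 h later. Each arm holds 5 wild-type mice and 5 homozygous GRA knockin mice. The knockin carries an exon 2 of Nr3c1, the glucocorticoid receptor gene, whose changed start codons no longer yield the shorter translational forms (GRB, GRC1 to GRC3 and GRD1 to GRD3), while the full-length form GRA is still made. Poly(A) RNA was sequenced as 75-base read pairs, 1 library per mouse as the labels are read here.

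Dexamethasone is a synthetic glucocorticoid. It binds the glucocorticoid receptor, which then moves from the cytoplasm to the nucleus, binds DNA at palindromic response elements and recruits coactivators, or represses genes through other transcription factors such as those of the NF-kappaB and AP-1 families. The hippocampus expresses both this receptor and the related mineralocorticoid receptor, in neurons and in glia. A gene whose RNA changes by a small fraction needs many replicates to be told from the spread between animals, and a 10 against 10 comparison bears on such genes. In bulk tissue, fewer cells of a type and less RNA per cell cannot be told apart.

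Nr3c1 itself was lower with Dex. Its level ran from 118 to 197 CPM (counts normalised to library size; median 145) in the 10 PBS libraries and from 88.6 to 117 CPM (median 107) in the 10 Dex libraries, and the 2 arms did not overlap. The log2 fold change was -0.50 (SE 0.08, edgeR adjusted p = 6.39e-05), and the genotypes gave -0.46 (wild-type) and -0.55 (knockin). The gene lies at chr18:39543598-39623727 (mm39), and gene-level counts do not see the mutated start codons, so they do not check the genotype labels.

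Libraries held from 11493014 to 48267708 read pairs assigned to genes, with overlapping ranges in the arms (medians 23288900 for PBS and 21017361 for Dex). The first principal component of log2 CPM took 26.2% of the variance and had every Dex library on one side of every PBS library. Choroid plexus markers summed to 2677 CPM in wild-type PBS replicate 4 and 2222 CPM in knockin Dex replicate 2, against 224 to 1118 CPM in the other libraries. Liver markers, without the transferrin and transthyretin genes that brain cells also express, summed to 306 and 188 CPM in wild-type PBS replicates 1 and 2 and to at most 81.6 CPM elsewhere. With 1 rich library in each arm for choroid plexus and both liver-rich libraries in the PBS arm, counts are also given without them.

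Of 18648 genes tested, 3435 changed with Dex at an adjusted p below 0.05 (18.4%). The 1849 that rose were 9.92% of genes and the 1586 that fell were 8.50%. Without the liver-rich libraries 1829 rose and 1843 fell, so the excess of rises was not kept. In the fit of the 4 groups, wild-type mice alone gave 1717 genes (9.21%) and knockin mice alone 1864 (10.0%). Of the 3435, 1262 were called in both genotypes, 399 in wild-type mice and not knockin mice, and 539 in knockin mice and not wild-type mice. The remaining 1235 genes (6.62%) were called in neither genotype. They split into 640 higher (3.43%) and 595 lower (3.19%). The median standard error of a log2 fold change was 0.0582 in the pooled fit, 0.0832 for wild-type mice and 0.0826 for knockin mice. The largest unadjusted p among called genes was 0.00921 in the pooled fit, 0.00459 in wild-type and 0.00499 in knockin mice. A test of the difference between the genotypes' Dex effects called 0 genes with edgeR, and 0 also with DESeq2 and limma-voom. With edgeR 527 of the 18648 genes had an unadjusted p below 0.05. That is a smaller share than the 0.05 that would arise if no gene differed.

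The genes called by the pooled fit and in neither genotype were those of small change. Their median fold, in either direction, was 1.12, against 1.26 for the 2200 called genes that 1 or both genotypes also gave. Of the 700 called genes with a change under 1.1-fold, 471 (67.3%) were called in neither genotype. That share fell to 40.0% from 1.1-fold to 1.2-fold, 26.1% from 1.2-fold to 1.5-fold, 15.9% from 1.5-fold to 2-fold and 4.42% at 2-fold or more. In the main fit, rises outnumbered falls in the smallest class, 495 against 205. Falls were the more frequent from 1.2-fold to 2-fold, with 582 against 493 up to 1.5-fold and 225 against 159 beyond it. At 2-fold or more there were 164 rises and 85 falls. The median level of these genes, 23.7 CPM, was close to the 23.2 CPM of the other called genes, and genes that were not called had a median of 11.3 CPM. These genes were chosen by the same counts that give their values, so the figures describe them and test nothing.

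**Figure D1:**
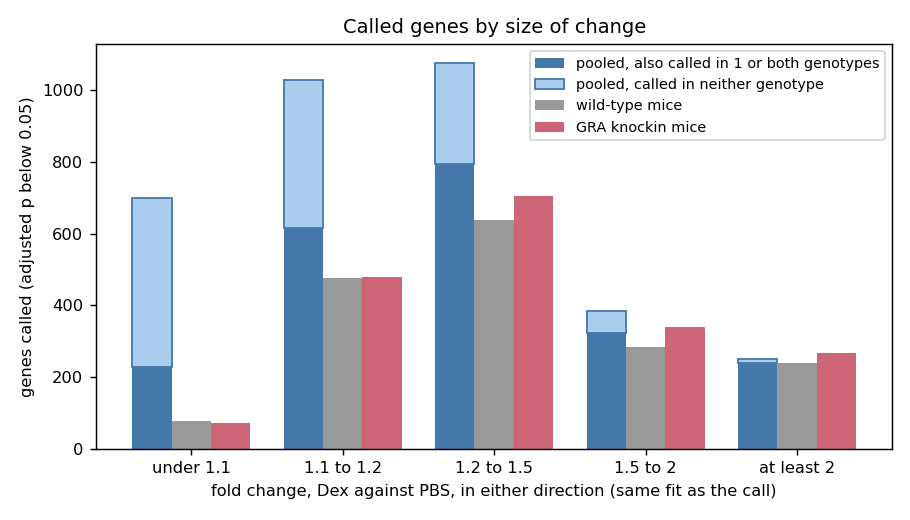
Number of genes called (vertical axis) in each class of fold change (horizontal axis), for the pooled fit, wild-type mice and GRA knockin mice; the pale section of the pooled bar is genes called in neither genotype. In the class under 1.1-fold the pooled fit called 700 genes, wild-type mice 77 and knockin mice 73, while at 2-fold or more the numbers were 249, 240 and 268.

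**Figure D2:**
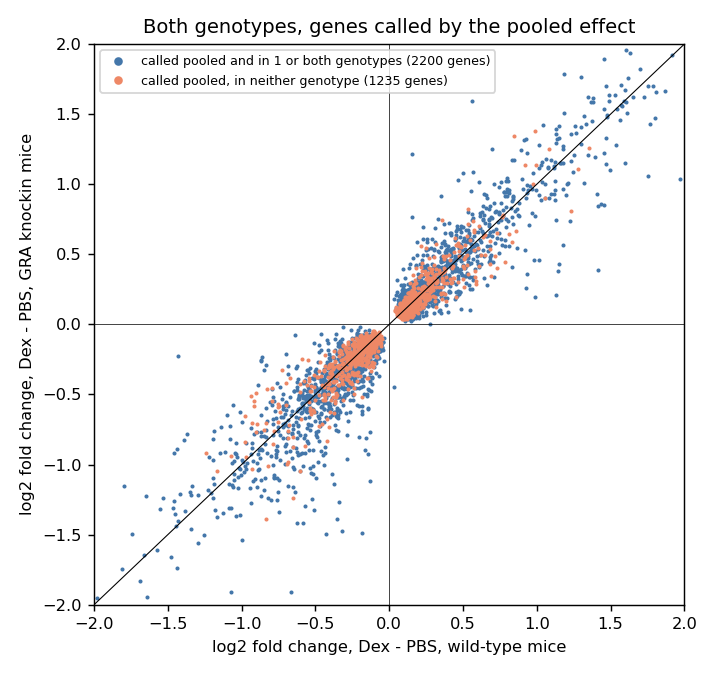
Log2 fold change of Dex against PBS in wild-type mice (horizontal axis) and GRA knockin mice (vertical axis) for each gene called by the pooled effect; the diagonal marks equal change, and 57 genes lie beyond the axes. The 1235 genes called in neither genotype sit along the diagonal near the centre, on the same side of 0 in both genotypes, as their selection by the pooled fit favours.

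Among genes with a mean log2 CPM of at least 1, the 6 largest rises were of 2.86 to 6.67 on the log2 scale. Lao1, an L-amino acid oxidase, was between 0 and 0.285 CPM in PBS and between 4.06 and 14.9 CPM in Dex libraries. Plin4, a lipid droplet coat protein, went from 0.762 to 1.83 CPM (PBS range) to 36.5 to 70.5 CPM (Dex range), a log2 fold change of 5.51 (SE 0.15, adjusted p = 9.6e-15). Cdkn1a, the cyclin-dependent kinase inhibitor p21, rose by 3.53 on the log2 scale, Pla2g3, a secreted phospholipase, by 3.52, Hif3a by 3.24 and the monooxygenase Fmo2 by 2.86. For these genes every Dex library was above every PBS library. At the same minimum level, the largest falls were in Tnc, an extracellular matrix glycoprotein (-1.77, SE 0.18), the glutamine transporter Slc38a5 (-1.65, SE 0.13), the protease inhibitor Serpinb1a (-1.59, SE 0.11), Fgfrl1, a decoy-like fibroblast growth factor receptor (-1.44, SE 0.06), the B-cell and microglial surface protein Cd180 (-1.43, SE 0.13) and the interferon-induced GTPase Gbp4 (-1.40, SE 0.16). Fgfrl1 was between 15.9 and 20.1 CPM in PBS and between 5.95 and 7.72 CPM in Dex libraries.

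Promoter sequence was read for the 12343 tested genes with an entry in the RefSeq promoter table (GRCm38.p6, 250 bases before to 50 after the annotated start). The full palindrome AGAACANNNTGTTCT, which reads the same on both strands, was in 1 of them, Sgk1. The shorter form GNACANNNTGTNC, which the full palindrome contains, was in 54 (0.437%). It was in 16 of 1363 genes called higher (1.17%), 3 of 1178 called lower (0.255%) and 35 of 9802 not called (0.357%). Of 107 genes that rose at least 2-fold, 5 held it (4.67%), and of 62 that fell at least 2-fold, 0 did. Among genes called in neither genotype it was in 3 of 466 that rose (0.644%) and 2 of 433 that fell (0.462%). The hexamer AGAACA, on either strand, was in 15.3% of all these genes, 16.3% of those called higher and 23.4% of those that rose at least 2-fold. A gene with more than 1 window was counted if any of them held the match. These are descriptions of letters in a short window. The 5 promoters of the strongly raised genes are shown with 24 bases on each side of the match, 5′ to 3′ on the gene's strand, with the 13-base match in capitals.
Map3k6, chr4:133240613-133240673, plus strand: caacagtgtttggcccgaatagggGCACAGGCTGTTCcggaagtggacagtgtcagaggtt
Sgk1, chr10:21993678-21993738, plus strand: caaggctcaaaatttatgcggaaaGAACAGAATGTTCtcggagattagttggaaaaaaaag
Fam107a, chr14:8309861-8309921, minus strand: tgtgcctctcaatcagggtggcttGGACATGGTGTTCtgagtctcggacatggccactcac
Mt1, chr8:94178971-94179031, plus strand: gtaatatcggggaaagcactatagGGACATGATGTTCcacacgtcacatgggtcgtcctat
Kcna5, chr6:126535578-126535638, minus strand: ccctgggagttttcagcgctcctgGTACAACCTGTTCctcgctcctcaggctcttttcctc

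The 5 genes differed in how cleanly the arms separated. Map3k6, a kinase at the head of MAP kinase cascades, was at 1.71 to 3.96 CPM (median 2.30) in PBS and 10.6 to 21.7 CPM (median 14.9) in Dex libraries, a log2 fold change of 2.58 (SE 0.18, adjusted p = 1.99e-09). Sgk1, the serum- and glucocorticoid-regulated kinase, was at 46.0 to 56.2 CPM (median 51.5) in PBS and 105 to 170 CPM (median 145) in Dex libraries, a change of 1.48 (SE 0.08, adjusted p = 1e-10). Fam107a, an actin-bundling stress-response protein, rose by 1.35 (SE 0.12) and the metallothionein Mt1 by 1.12 (SE 0.09), and in both the arms did not overlap. The potassium channel Kcna5 was at 0.635 to 2.87 CPM in PBS and 1.95 to 3.96 CPM in Dex libraries, so its arms overlapped (1.07, SE 0.20, adjusted p = 0.000331).

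Some small changes separated the arms fully. In 728 genes (3.90% of those tested) all 10 Dex libraries lay on one side of all 10 PBS libraries, 408 above (2.19%) and 320 below (1.72%), and 4 of the 728 were called in neither genotype. Arl2bp, which binds the small GTPase ARL2, had the smallest change among separated genes that fell, at a mean log2 CPM of at least 1. It was at 118 to 124 CPM (median 120) in PBS and 107 to 117 CPM (median 114) in Dex libraries, a log2 fold change of -0.09 (SE 0.02, adjusted p = 0.00216). Mark3, a microtubule-affinity regulating kinase, had the smallest separated rise by the same rule, at 71.3 to 75.2 CPM in PBS and 76.3 to 81.8 CPM in Dex libraries (0.10, SE 0.02, adjusted p = 0.000466). The next separated rises were Dlgap1, a scaffold of the postsynaptic density (0.12), Ccny, a cyclin (0.12), Ivns1abp (0.13), Klhl24 (0.13), the sodium channel Scn3a (0.13), the creatine transporter Slc6a8 (0.14) and Rgl1, a regulator of Ral GTPases (0.14). Dlgap1 was at 662 to 747 CPM in PBS and 749 to 796 CPM in Dex libraries. The next separated falls were the astrocyte membrane protein Mlc1 (-0.09), Rassf2 (-0.11), Rab36 (-0.13), Baalc (-0.14), Tkt, the transketolase of the pentose phosphate pathway (-0.14), the Wnt receptor Ryk (-0.15) and the sodium pump subunit Atp1b3 (-0.16). Tkt was at 127 to 140 CPM in PBS and 117 to 127 CPM in Dex libraries. These 16 genes were picked among genes called by the pooled fit, so their calls are no added support. Their adjusted p (edgeR) ran from 9.01e-06 for Baalc to 0.00458 for Mlc1.

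The genes called in neither genotype with the smallest pooled adjusted p had nearly equal changes in the 2 genotypes, each just short of its own threshold, as the choice itself requires. Dock10 (chr1:80478790-80736165, mm39), a guanine nucleotide exchange factor, was at 91.8 to 121 CPM (median 109) in PBS and 109 to 153 CPM (median 132) in Dex libraries. Its log2 fold change was 0.28 (SE 0.06, adjusted p = 0.00209), and 0.28 in each genotype (adjusted p = 0.053 in both). Kyat3, an aminotransferase of the kynurenine pathway, went from 2.77 to 5.13 CPM to 4.31 to 7.31 CPM (0.51, SE 0.12). Kalrn, the dendritic spine protein kalirin, went from 597 to 783 CPM to 733 to 843 CPM (0.19, SE 0.04). Cttn, the actin-binding cortactin, was at 149 to 175 CPM in PBS and 172 to 185 CPM in Dex libraries (0.11, SE 0.03). Cpt1a, which commits fatty acids to mitochondrial oxidation, was at 32.8 to 41.5 CPM in PBS and 35.9 to 51.8 CPM in Dex libraries (0.25, SE 0.06). Ncbp1, a nuclear cap-binding protein (0.17), Nxpe3 (0.17) and Csnk1g3, a casein kinase (0.13), complete the 8 rises. The arms of these 8 genes overlapped.

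Among the 8 falls, Cdk4 (chr10:126899403-126903789, mm39), a kinase of the G1 phase, was at 29.6 to 36.3 CPM (median 33.9) in PBS and 27.1 to 31.2 CPM (median 29.8) in Dex libraries. Its log2 fold change was -0.16 (SE 0.04, adjusted p = 0.00194), with an adjusted p of 0.055 (wild-type) and 0.056 (knockin) in the single genotypes. The retinoic acid receptor Rarg (-0.35, SE 0.08), the membrane progestin receptor Paqr7 (-0.30, SE 0.07) and the sphingosine 1-phosphate receptor S1pr2 (-0.42, SE 0.10) are receptors for lipid ligands. S1pr2 was at 1.98 to 2.70 CPM in PBS and 1.37 to 2.15 CPM in Dex libraries. Spr, the sepiapterin reductase of tetrahydrobiopterin synthesis, fell by 0.17 on the log2 scale, Atic, of purine synthesis, by 0.15, and Tspan9, a tetraspanin, by 0.27. Arl2bp, described above, is the other member and the only 1 of these 16 genes whose arms did not overlap. All 16 stayed called without any 1 library.

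**Figure D3:**
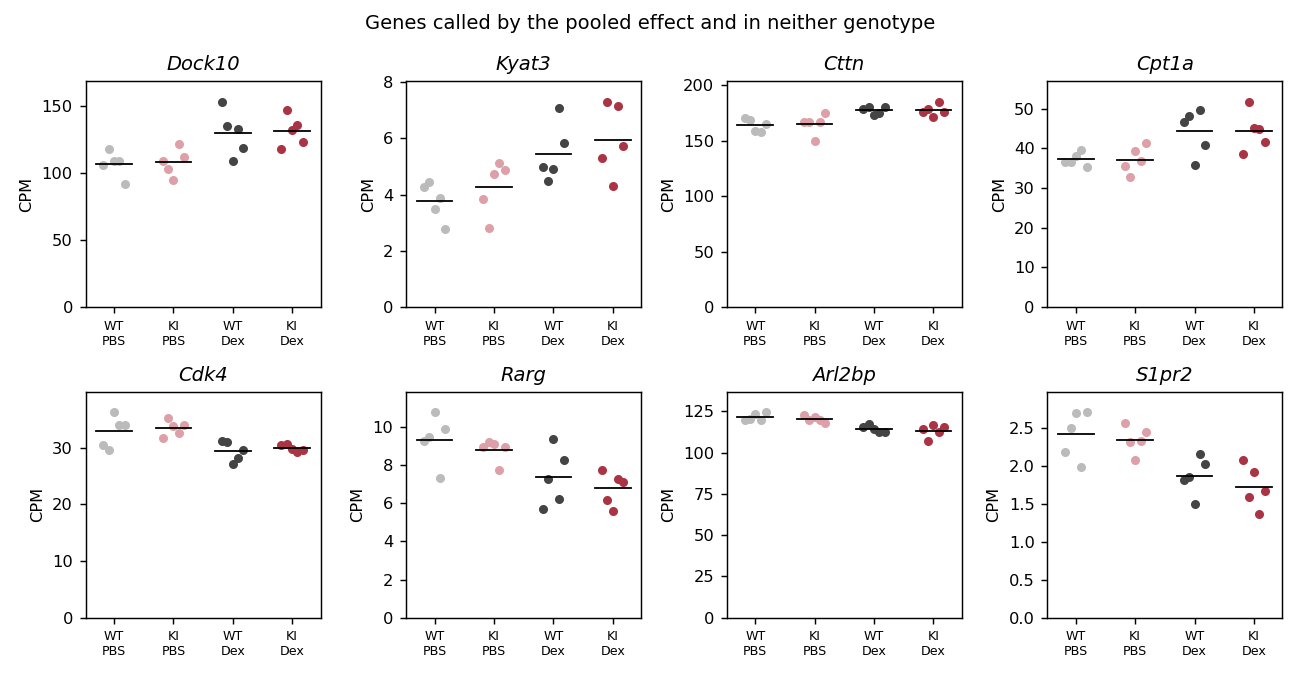
Level of 8 genes in CPM (vertical axes, from 0) in each library of the 4 groups; a point is a library and a line is the mean of 5. Dex points sit above PBS points for Dock10, Kyat3, Cttn and Cpt1a and below them for Cdk4, Rarg, Arl2bp and S1pr2, with overlap in all but Arl2bp.

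Known targets of the receptor rose. Of 39 genes listed as receptor-induced, 34 rose and 0 fell, against 9.92% and 8.50% of all genes, and the median log2 fold change was 0.97 against -0.00 over all genes. The list was drawn with earlier results of these libraries known. Tsc22d3, the leucine zipper protein GILZ, was at 34.8 to 51.9 CPM in PBS and 112 to 202 CPM in Dex libraries (1.76, SE 0.09), and Mertk, a receptor for the uptake of dying cells, rose by 1.08 (SE 0.05). The 4 members called in neither genotype were Ccn2, a matricellular protein (0.61, SE 0.16), Pdk4, a pyruvate dehydrogenase kinase (0.37, SE 0.09), Arrdc3 (0.29, SE 0.09) and Dusp1, a MAP kinase phosphatase (0.18, SE 0.06, adjusted p = 0.035). Dusp1 was at 8.31 to 11.6 CPM in PBS and 9.72 to 13.2 CPM in Dex libraries, and its call was lost without any of 9 libraries (highest adjusted p = 0.0942).

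Among 20 receptor chaperones and coregulators, 5 rose and 3 fell (40.0%, beside 18.4% of all genes). Fkbp5, a co-chaperone that restrains the receptor, was at 22.7 to 69.2 CPM in PBS and 103 to 169 CPM in Dex libraries (1.60, SE 0.21). The coactivators Ep300 (0.10), Crebbp (0.11) and Ncoa1 (0.07) rose, Ncoa1 losing its call without any of 7 libraries. Nr3c2, the mineralocorticoid receptor gene, was at 234 to 406 CPM (median 287) in PBS and 207 to 280 CPM (median 248) in Dex libraries. Its change was -0.30 (SE 0.10, adjusted p = 0.038), in neither genotype alone, and was lost without any of 11 libraries (highest adjusted p = 0.0773). The falls numbered 1 without knockin Dex replicate 2, and the rises numbered 2 without the liver-rich libraries. At an adjusted p below 0.01 there was 1 rise and 1 fall.

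Insulin, mTOR and AMPK signalling moved in 20 of 43 genes, 15 higher and 5 lower (46.5%, beside 18.4% of all genes). Castor1, an arginine sensor that restrains mTORC1, was at 1.92 to 3.00 CPM in PBS and 6.39 to 13.1 CPM in Dex libraries (1.92, SE 0.14, adjusted p = 1.53e-09). Ddit4, the mTORC1 inhibitor REDD1, rose by 0.74 (SE 0.09), while its paralog Ddit4l fell (-0.70, SE 0.09). Of receptors and adaptors, Igf1r (0.36, SE 0.04), Insr (0.14, SE 0.03), Irs2 (0.34, SE 0.06) and Pik3r1 (0.20, SE 0.03) rose and Pik3r3 fell (-0.17, SE 0.03). Of kinases, Akt2 fell from 60.5 to 73.2 CPM in PBS to 44.9 to 54.6 CPM in Dex libraries (-0.40, SE 0.04), and Rps6kb1 (0.14) rose. Rictor, a subunit of an mTOR complex, also rose (0.12). The transcription factors Foxo1 (0.20) and Foxo3 (0.24) rose. Mtor (0.09), Pdpk1 (0.08), Tsc2 (0.07) and Eif4ebp1 (0.45) were called by the pooled fit and in neither genotype. Those calls were lost without any of 4, 4, 10 and 10 libraries, respectively.

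Autophagy genes gave calls almost wholly from the pooled fit. Of 31 members 6 rose and 1 fell, and 6 of these 7 were called in neither genotype (6.62% of all genes). Wild-type mice alone gave 0 calls (edgeR) and knockin mice 1, Becn1. Map1lc3b, the LC3 protein of the autophagosome membrane, was at 110 to 127 CPM (median 121) in PBS and 124 to 139 CPM (median 128) in Dex libraries (0.10, SE 0.03, adjusted p = 0.00439). Atg13, of the initiating kinase complex, was at 73.2 to 83.8 CPM in PBS and 82.2 to 90.5 CPM in Dex libraries (0.10, SE 0.03). Its partner Atg101 (0.12, SE 0.04), the lipid transfer protein Atg2b (0.11, SE 0.03), the LC3 protease Atg4d (0.12, SE 0.04) and Becn1 (0.09, SE 0.02) rose, and Wipi1, a phosphoinositide-binding member, fell (-0.15, SE 0.04, adjusted p = 0.00909). The 7 called were 22.6% of the list, beside 18.4% of all genes. The rises numbered 4 without the choroid-rich libraries, and 3 without a filter on low counts or at an adjusted p below 0.01. The falls numbered 3 without the liver-rich libraries. Atg101 lost its call without any of 4 libraries and Atg4d without any of 6.

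Genes for the machinery of protein synthesis and respiration gave few calls. Of 83 cytosolic ribosomal proteins 1 rose, Rps14 (0.09, SE 0.03, adjusted p = 0.025, lost without any of 5 libraries), and their log2 fold changes ran from -0.14 to 0.17. Of 79 nuclear-encoded subunits of complexes I, III and IV and ATP synthase 2 rose, Ndufc2 (0.13, SE 0.03) and Cox6a2 (0.52, SE 0.11), and 0 fell. Of 78 mitochondrial ribosomal proteins 2 rose, with Mrpl41 at 23.6 to 28.0 CPM in PBS and 32.7 to 49.8 CPM in Dex libraries (0.47, SE 0.06). The 13 mitochondrially encoded proteins gave 0 calls in edgeR. In metabolism, 5 of 32 glycolysis and pyruvate genes rose and 1 fell (18.8%, near the 18.4% of all genes), and 2 fell without knockin PBS replicate 1 or without the liver-rich libraries. Pdk2, which inhibits pyruvate dehydrogenase, rose by 0.31 (SE 0.04), and Slc16a1, the monocarboxylate transporter MCT1, fell from 54.3 to 68.8 CPM to 26.5 to 42.1 CPM (-0.82, SE 0.07).

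In protein folding and turnover, 6 of 27 genes of the endoplasmic reticulum fell and 2 rose (29.6%, beside 18.4% of all genes). The disulfide isomerases Pdia4 (-0.27, SE 0.04), Pdia6 (-0.19, SE 0.03) and P4hb (-0.08, SE 0.02) fell, while Dnajc3, a co-chaperone that inhibits the stress kinase PERK, was at 64.7 to 71.4 CPM in PBS and 74.9 to 83.9 CPM in Dex libraries (0.22, SE 0.02). The falls numbered 2 at an adjusted p below 0.01. Of 46 proteasome genes 5 rose and 3 fell (17.4%, near the 18.4% of all genes). The 3 that fell are the subunits of the interferon-inducible immunoproteasome, Psmb8 (-0.75, SE 0.15), Psmb9 (-0.91, SE 0.18) and Psmb10 (-0.14, SE 0.05), and Psmb10 lost its call without any of 12 libraries. Psmc1 (0.12) and Psme4 (0.18), a base and an activator subunit, rose, and 3 rises were called without wild-type PBS replicate 3, without the choroid-rich libraries, without a filter on low counts or at an adjusted p below 0.01. With at least 50 counts in 10 libraries 1 fall was called. Of 33 lysosomal hydrolase and membrane protein genes 3 rose and 2 fell (15.2%, beside 18.4% of all genes). The protease Ctsl was at 68.6 to 75.8 CPM in PBS and 83.3 to 94.5 CPM in Dex libraries (0.28, SE 0.03), while Lgmn and Scarb2 fell. Of 20 genes of the vacuolar ATPase, the proton pump, 3 rose and 0 fell (15%), with Atp6v0e higher by 0.44 (SE 0.06). Without 1 library the lysosomal falls numbered from 2 to 5 and the proton pump rises from 1 to 4.

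Chromatin regulators gave 8 rises and 6 falls among 54 (25.9%, beside 18.4% of all genes). Among the rises, Kdm4b, a histone demethylase, was at 67.8 to 88.3 CPM in PBS and 83.2 to 97.9 CPM in Dex libraries (0.24, SE 0.04), and Ezh2, the methyltransferase of Polycomb complexes, rose by 0.44 (SE 0.08). The falls were small, and 5 of the 6 were called in neither genotype: Smarcc1 (-0.10, SE 0.03), Chd7 (-0.18, SE 0.05), Tet1 (-0.15, SE 0.05), Hdac5 (-0.12, SE 0.04) and Hdac7 (-0.13, SE 0.05). The last 2 lost their calls without any of 4 and 10 libraries. The number of falls was 3 at the lowest without 1 library, and was moved by over 1.5 times without knockin Dex replicate 2, knockin PBS replicate 3 or wild-type PBS replicate 5. It was 10 without the liver-rich libraries, 3 without the choroid-rich libraries and 1 at an adjusted p below 0.01.

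Other signalling lists were mixed. Of 49 MAP kinase genes 10 rose and 7 fell (34.7%, beside 18.4% of all genes), 7 of the 17 in neither genotype (6.62% of all genes). Ksr1, a scaffold of the cascade, was at 83.4 to 162 CPM (median 130) in PBS and 155 to 182 CPM (median 168) in Dex libraries (0.42, SE 0.11, adjusted p = 0.0113), and Mapk3, the kinase ERK1, fell (-0.10, SE 0.03, adjusted p = 0.0164). Of 41 calcium signalling genes 11 rose and 4 fell (36.6%). Rcan2, a calcineurin regulator, was at 119 to 148 CPM in PBS and 166 to 200 CPM in Dex libraries (0.50, SE 0.04), and the release channel Itpr2 (0.43, SE 0.04) and the sensor Stim1 (0.13, SE 0.02) rose. The falls numbered 2 without wild-type PBS replicate 5. Of 45 cyclic nucleotide genes 4 rose and 8 fell (26.7%), with Rapgef3, the cAMP-sensing exchange factor EPAC1, at 21.4 to 28.3 CPM in PBS and 37.3 to 44.5 CPM in Dex libraries (0.69, SE 0.04) and the transcription factor Creb5 lower (-0.52, SE 0.08). At an adjusted p below 0.01 the falls numbered 4 for MAP kinase genes, 2 for calcium signalling and 5 for cyclic nucleotide genes.

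Genes that guide cell processes moved in both directions. Of 53 semaphorins, plexins, ephrins and Eph receptors 9 rose and 13 fell (41.5%, beside 18.4% of all genes). Of these 22, 8 were called in neither genotype (6.62% of all genes). The falls numbered from 9 to 15 without 1 library, 17 without the liver-rich and 10 without the choroid-rich libraries. At an adjusted p below 0.01 there were 8 rises and 7 falls, so the excess of falls was not kept. Sema6d was at 88.9 to 112 CPM in PBS and 63.8 to 78.5 CPM in Dex libraries (-0.50, SE 0.04), and Sema6a fell (-0.53, SE 0.05). The ligands Efnb2 (-0.25, SE 0.06) and Efnb3 (-0.21, SE 0.03) and the receptor Ephb1 (-0.34, SE 0.07) of the B class fell. Sema7a (0.17, SE 0.04) and Sema4b (0.16, SE 0.04) rose in the pooled fit and in neither genotype, and Sema3c rose by 0.34 (SE 0.04).

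Synaptic genes moved by small amounts. Of 46 glutamate receptor and postsynaptic genes 7 rose and 3 fell (21.7%, beside 18.4% of all genes). Grm3, a metabotropic receptor, was at 52.6 to 68.1 CPM in PBS and 41.3 to 47.5 CPM in Dex libraries (-0.43, SE 0.04), the scaffold Homer2 rose (0.21, SE 0.03), and Grin3a, an NMDA receptor subunit, fell in the pooled fit and in neither genotype (-0.41, SE 0.10, adjusted p = 0.00627). Of 23 GABA genes 4 rose and 2 fell (26.1%, beside 18.4%). The receptor anchor Gphn (0.09, SE 0.02) and the synthetic enzyme Gad2 (0.13, SE 0.03) rose and the extrasynaptic subunit Gabrd fell (-0.16, SE 0.05), these 3 in neither genotype. The glutamate falls numbered 6 without the liver-rich libraries. The GABA falls numbered from 1 to 3 without 1 library, moving by over 1.5 times without knockin Dex replicates 1, 2 or 5, knockin PBS replicates 1 or 3, wild-type Dex replicates 3 or 4, or wild-type PBS replicate 4, and 0 at an adjusted p below 0.01. Of 50 genes of the release machinery 7 rose and 2 fell (18.0%, near the 18.4% of all genes), with Syt13 (0.20, SE 0.03), Rims2 (0.12, SE 0.02) and Syt12 (0.18, SE 0.04) leading. The falls there numbered 1 without any of 16 libraries, which are all but wild-type Dex replicates 3 and 5 and wild-type PBS replicates 1 and 2, and 0 at an adjusted p below 0.01.

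Potassium channel genes gave more rises than falls, 10 against 3 of 46 voltage-gated and 9 against 5 of 33 other members. These were 28.3% and 42.4% of the lists, beside 18.4% of all genes (9.92% higher, 8.50% lower). The voltage-gated falls numbered 5 without knockin PBS replicate 4 or without the liver-rich libraries, and the rises 5 at an adjusted p below 0.01. Kcna1 was at 84.0 to 94.5 CPM in PBS and 91.1 to 119 CPM in Dex libraries (0.25, SE 0.04), and the sodium-activated channel Kcnt1 went from 36.6 to 52.3 CPM to 62.3 to 82.2 CPM (0.66, SE 0.06). Kcnd2 (0.10, SE 0.03), Kcnj3 (0.10, SE 0.03) and Kcnma1 (0.11, SE 0.03) rose in the pooled fit and in neither genotype. The channel subunits Kcna6 (-0.28, SE 0.04), Kcnk13 (-0.99, SE 0.09) and Kcnn3 (-0.63, SE 0.08) fell. Of 33 sodium and calcium channel genes 5 rose, among them Cacnb2 (0.26, SE 0.04) and Cacna1h (0.24, SE 0.05), and 3 fell, among them Hcn3 (-0.33, SE 0.06; 24.2% called); without 1 library the falls numbered from 1 to 3, and they were moved by over 1.5 times without knockin Dex replicates 3 or 4, knockin PBS replicate 3, wild-type Dex replicates 1 or 2, or wild-type PBS replicate 5.

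The clock list gave 7 rises and 4 falls among 23 (47.8%, beside 18.4% of all genes). Rora (0.33, SE 0.03), a nuclear receptor that drives clock transcription, Per1 (0.35, SE 0.03), Per2 (0.25, SE 0.05) and Cry1 (0.27, SE 0.06), repressors in the loop, rose. Rorb was at 23.3 to 26.9 CPM in PBS and 10.2 to 15.0 CPM in Dex libraries (-0.94, SE 0.06), and the output factor Dbp fell from 34.9 to 51.7 CPM to 24.3 to 31.1 CPM (-0.61, SE 0.05). The repressors Nr1d1 (-0.16, SE 0.04) and Bhlhe41 (-0.13, SE 0.04) fell in the pooled fit and in neither genotype. The immediate-early list gave 2 falls among 26 (7.69%), Nr4a3 (-0.36, SE 0.11, adjusted p = 0.0238) and Inhba (-0.37, SE 0.12, adjusted p = 0.0324), both in neither genotype. Nr4a3 ran from 67.9 to 136 CPM in PBS and 68.0 to 93.8 CPM in Dex libraries. Its adjusted p was 0.05 without knockin PBS replicate 3, and Inhba lost its call without any of 9 libraries.

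Immune genes gave more falls than rises. Of 33 interferon response genes 22 fell and 0 rose (66.7%, beside 18.4% of all genes), with a median log2 fold change of -0.40. Gbp3, a guanylate-binding protein, was at 5.10 to 7.75 CPM in PBS and 1.73 to 3.33 CPM in Dex libraries (-1.11, SE 0.09), and Ifit3b went from 4.18 to 6.69 CPM to 1.28 to 2.90 CPM, though close copies make Ifit and Gbp counts uncertain. Usp18 (-0.64, SE 0.18, adjusted p = 0.0114) fell in the pooled fit and in neither genotype. Of 40 cytokine and NF-kappaB genes 8 rose and 11 fell (47.5%), with the inhibitor Nfkbia at 11.8 to 15.9 CPM in PBS and 22.1 to 37.1 CPM in Dex libraries (1.03, SE 0.08) and the receptors Tlr3 (-0.83, SE 0.07) and Il6st (-0.29, SE 0.03) lower. Without wild-type PBS replicate 3 the rises numbered 5.

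Within cell type marker lists the members moved apart from each other. Of 21 microglial markers 13 fell and 4 rose (81.0%, beside 18.4% of all genes). Cx3cr1, the fractalkine receptor, was at 64.0 to 73.0 CPM in PBS and 34.6 to 49.3 CPM in Dex libraries (-0.67, SE 0.05), while C1qa (0.15, SE 0.04), C1qb (0.21, SE 0.05) and Selplg (0.24, SE 0.04) rose. Of 24 markers of myelinating oligodendrocytes 12 fell and 2 rose (58.3%), with Gpr37 (-0.48, SE 0.05) lower, Opalin lower at 9.36 to 14.2 CPM in Dex against 23.1 to 32.9 CPM in PBS libraries, and the myelin protein gene Mobp higher (0.43, SE 0.11, adjusted p = 0.00826, in neither genotype). Mobp ran from 192 to 319 CPM in PBS and 208 to 433 CPM in Dex libraries. Of 20 astrocyte markers 5 rose and 5 fell (50%), with Gjb6 (connexin 30) at 25.9 to 42.0 CPM in PBS and 79.0 to 90.4 CPM in Dex libraries (1.40, SE 0.07) and the water channel Aqp4 lower (-0.41, SE 0.03). Of 21 endothelial markers 5 rose and 8 fell (61.9%), with the lipid transporter Mfsd2a at 11.9 to 15.2 CPM in PBS and 49.1 to 66.2 CPM in Dex libraries (2.11, SE 0.06) and the thyroid hormone transporter Slco1c1 lower (-0.57, SE 0.05). Of 24 markers of progenitors and immature neurons 4 fell (16.7%), among them Sox2 (-0.70, SE 0.06), Mcm3 (-0.45, SE 0.09) and Mcm2 (-0.37, SE 0.07).

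Markers of dentate granule neurons were called mainly by the pooled fit. Of 16 markers 6 rose and 4 fell (62.5%, beside 18.4% of all genes), 8 of the 10 in neither genotype (6.62% of all genes), where wild-type mice gave 2 calls and knockin mice 1. Pdzd2 (chr15:12359797-12592642, mm39) was at 32.2 to 82.7 CPM (median 45.8) in PBS and 76.6 to 112 CPM (median 86.6) in Dex libraries (0.77, SE 0.17, adjusted p = 0.00301). Both arms overlapped only through its highest PBS value, in knockin PBS replicate 4. C1ql3, a secreted synaptic protein, rose by 0.31 (SE 0.06, adjusted p = 0.000396) and its relative C1ql2 fell (-0.28, SE 0.07, adjusted p = 0.00793). Il16 (0.25), Tdo2 (0.31), Maml2 (0.33) and Dsp (0.56) rose and the channel Trpc6 (-0.37), Rasl10a (-0.37) and the kinase Plk5 (-0.47) fell. Prox1, the transcription factor that defines these neurons, was at 134 to 173 CPM in PBS and 144 to 171 CPM in Dex libraries and was not called (0.03, SE 0.05, adjusted p = 0.751).

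The spread among PBS libraries was wide for several of these markers, and the calls moved with single libraries. Dsp ran from 27.3 to 89.9 CPM in PBS and 64.2 to 90.6 CPM in Dex libraries (adjusted p = 0.0499) and lost its call without any of 16 libraries; Rasl10a did so without any of 12, Plk5 10, Maml2 6 and Tdo2 4. The 6 rises numbered from 3 to 9 without 1 library, moving by over 1.5 times without knockin PBS replicates 2 or 3 or wild-type PBS replicate 3, and 3 without the choroid-rich libraries. They numbered 2 without a filter on low counts or at an adjusted p below 0.01, and 10 with limma-voom. The 4 falls numbered from 2 to 5, moving by that much without replicates 3 or 4 of either Dex group, knockin PBS replicates 2 or 3, or wild-type PBS replicates 3 or 5, and 2 without a filter or at an adjusted p below 0.01. Summed over the list, the markers gave 968 to 1322 CPM in PBS and 1138 to 1352 CPM in Dex libraries. Markers of CA1 pyramidal neurons gave 924 to 1100 CPM and 976 to 1178 CPM, and those of the thalamus and habenula, which adjoin the hippocampus, 305 to 360 CPM and 337 to 378 CPM. Of 17 thalamic markers 3 rose (17.6%, near the 18.4% of all genes), among them Rora, which is also in the clock list. The part of dissection in these results was not tested. Of 26 markers of CA1, CA2 and CA3 pyramidal neurons 1 rose, Gpr161 (0.56, SE 0.10), and of 20 interneuron markers 3 rose (15.0%), Lamp5 (0.32, SE 0.06), Reln (0.25, SE 0.07) and Gad2. Without wild-type Dex replicate 1 the interneuron rises numbered 5.

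**Figure D4:**
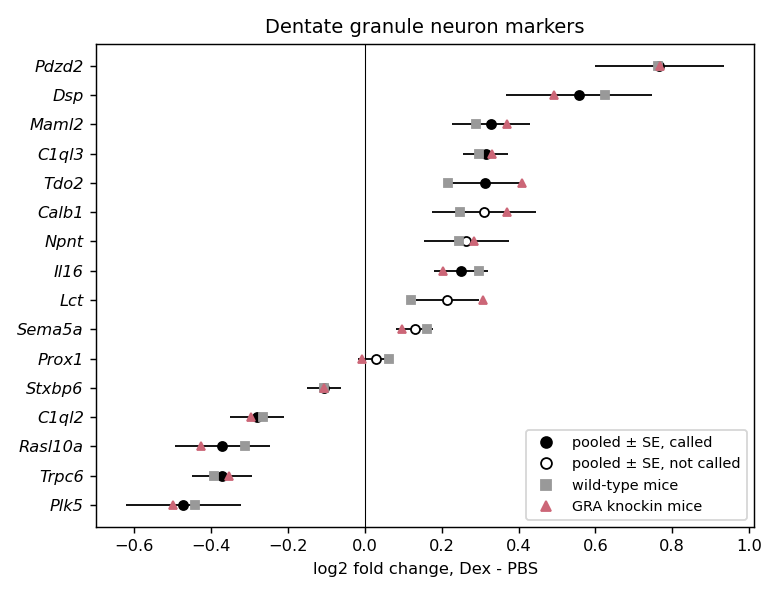
Log2 fold change of Dex against PBS (horizontal axis) for the 16 markers of dentate granule neurons; circles are the pooled estimate with its standard error, filled where called, squares are wild-type mice and triangles knockin mice. The genotype estimates lie close together for Pdzd2, at 0.76 and 0.77, and on both sides of 0 for Prox1, which was not called.

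**Figure D5:**
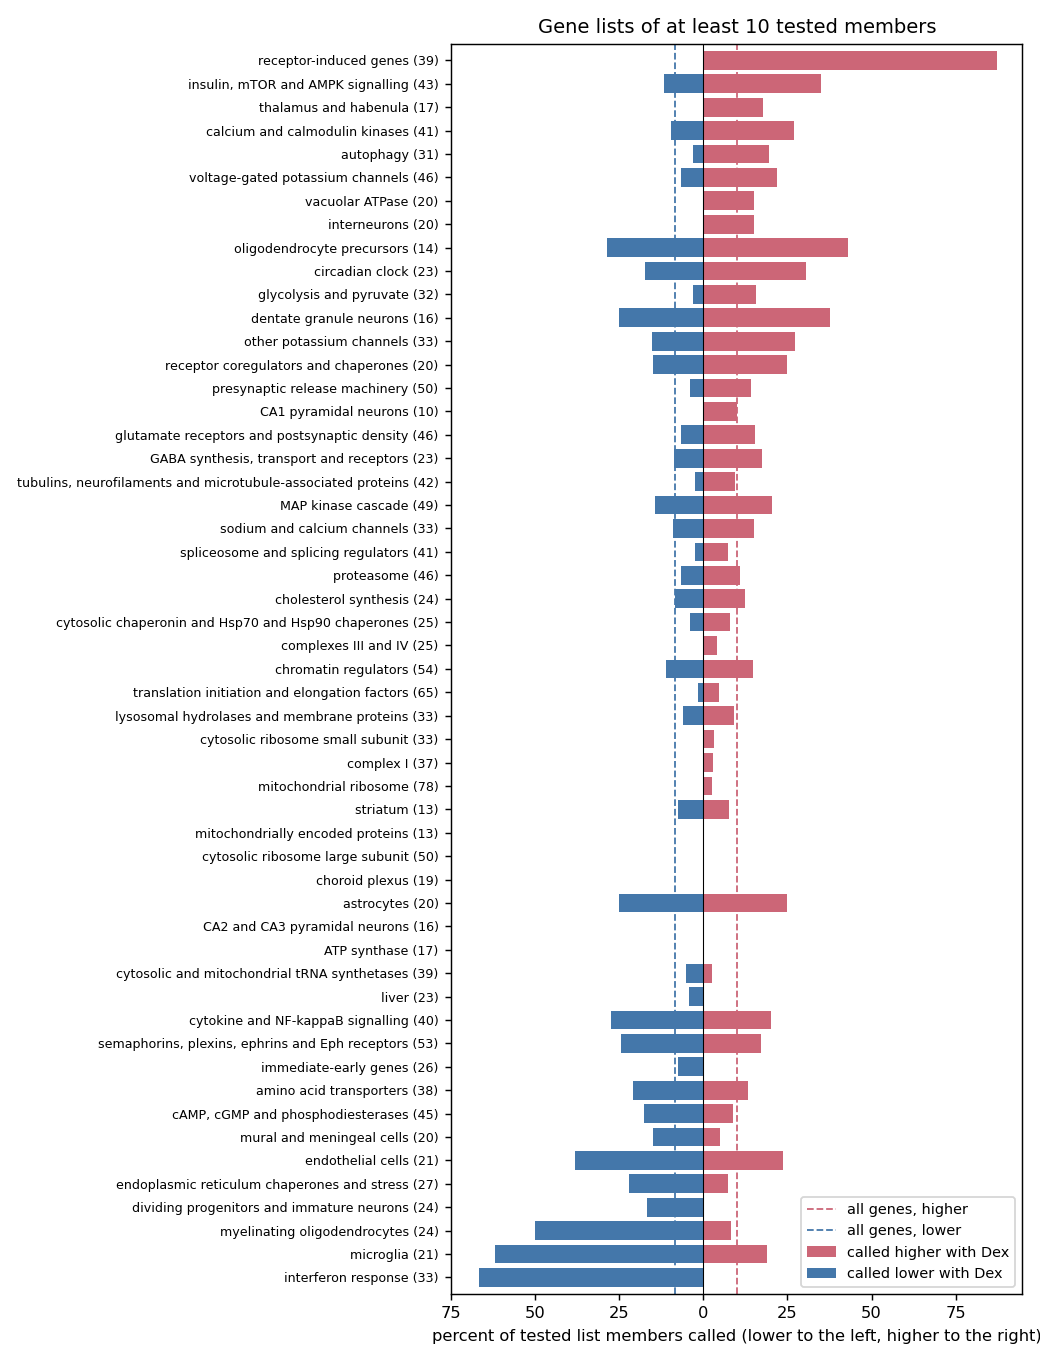
Percent of tested members of the gene lists (rows, number tested in brackets; lists of at least 10) called higher (right) or lower (left) by the pooled fit; dashed lines mark the share over all genes, 9.92% higher and 8.50% lower. Receptor-induced genes reach furthest to the right, the interferon response furthest to the left, and the ribosome, ATP synthase and mitochondrially encoded lists stay at or near 0.

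Pooling also lost calls. There were 119 genes called in 1 genotype and not by the pooled fit, 56 in wild-type and 63 in knockin mice. Of the 119, 74 changed in the same direction in both genotypes. Over all 18648 genes 13086 did so, and 9652 of the 15213 not called by the pooled fit. Cd74, the invariant chain of class II antigen presentation, was at 3.27 to 10.1 CPM in PBS and 2.13 to 6.52 CPM in Dex libraries (-0.66, SE 0.26, adjusted p = 0.0929), with -1.42 in knockin mice (adjusted p = 0.0018) and 0.05 in wild-type mice (adjusted p = 0.96). The class II gene H2-Aa was called by the pooled fit (-0.82, SE 0.25, adjusted p = 0.0263), with -1.49 in knockin and -0.19 in wild-type mice, and its pooled call was lost without knockin Dex replicates 1 or 4 or wild-type PBS replicate 4. Lingo4 was at -0.41 (SE 0.17, adjusted p = 0.108) in the pooled fit, -0.96 in knockin and 0.14 in wild-type mice. The genotype difference had an unadjusted p of 0.00134 for Cd74, 0.00403 for H2-Aa and 0.000625 for Lingo4, and an adjusted p of 1.00 for each.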

How the data were processed

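Hippocampal poly(A) RNA of 20 mice was analysed from the deposited counts, which the authors made as read pairs per gene with featureCounts 2.0.6 and the GENCODE M34 basic annotation on mm39, without strand and without multi-mapping pairs, per the file headers. The submitters' processing notes name STAR 2.5.1, Subread 1.5.1 and DESeq2 1.38.3. Overlapping genes and close copies are therefore uncertain. Symbols matched 51884 of 57126 identifiers in a names table of an older annotation; the other 5242 kept their identifiers as names.

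Genes were kept by filterByExpr (minimum count 10, total 15), scaled by TMM and tested with edgeR 4.0.16's quasi-likelihood test (R 4.3.3), with genotype and treatment as terms and Benjamini-Hochberg adjustment over 18648 genes. Genotype effects and their difference came from a fit of the 4 groups. CPM use TMM library sizes, and "called" means an adjusted p below 0.05. Precision rests on 17 residual degrees of freedom and a biological coefficient of variation of 7.01%. DESeq2 1.42.0 and limma 3.58.1 were alternatives. The fit was tested on simulated data. Library pairs within groups gave a chi-square per gene of 2.56 to 12.7 over 40 pairs, above sampling noise, so none was counted as a repeat. If libraries did not come from separate mice, p-values measure the spread between samples only.

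Named genes were Nr3c1 and, at a mean log2 CPM of at least 1, the 6 largest rises and falls. At the same minimum, the 8 genes each way called in neither genotype with the smallest adjusted p were named. Without that minimum, the 8 called and separated genes each way with the smallest change were named. Each list gave up to 3 called members with the smallest adjusted p. Other list members, promoter genes and genes lost by pooling were chosen after their values were seen. Some results are not reported here. The lists and the comparison itself were chosen with earlier results of these data known.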

Additional observations from a re-analysis of the deposited data

Results flagged for a closer look

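The level of each named gene and the summed levels of 3 marker lists were examined for a single library far from the other 9 of its arm, which chance gives in about 1 in 20 arms. Of 388 arms examined 26 held such a library (6.70%). Knockin Dex replicate 4 was the highest Dex library for 7 of them, 3 being genes known as receptor targets: Fam107a (1042 CPM), Tsc22d3 (202 CPM) and Mt1 (251 CPM), and also Mrpl41 (49.8 CPM), Atp6v0e (28.8 CPM), Pdk2 (150.4 CPM) and Lamp5 (42.2 CPM). Choroid plexus markers were highest in wild-type PBS replicate 4 (2677 CPM) and knockin Dex replicate 2 (2222 CPM). The latter was also the lowest Dex library for Arl2bp (107 CPM) and the highest for Kcnj3 (231 CPM).

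In the PBS arm, wild-type replicate 4 was highest for Atg2b (59.6 CPM) and Mtor (132 CPM), and wild-type replicate 1 lowest for Cry1 (10.7 CPM). Among knockin PBS libraries, replicate 4 was highest for Akt2 (73.2 CPM), replicate 3 for Creb5 (10.6 CPM), replicate 2 for Pdia6 (96.4 CPM) and replicate 5 for Gbp3 (7.75 CPM) and Usp18 (2.00 CPM). In the Dex arm, wild-type replicate 2 was highest for Dusp1 (13.2 CPM), replicate 5 for Ep300 (97.4 CPM) and Sema6a (29.1 CPM), and replicate 4 was lowest for Hdac5 (126 CPM). Knockin Dex replicate 5 was lowest for Cox6a2 (2.17 CPM) and Foxo1 (63.8 CPM), and replicate 3 highest for Pdia4 (35.0 CPM).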

How the results depend on the processing

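Over all alternatives, 0 genes called by the main fit were called in the opposite direction, and the genotype difference stayed at 0 calls in each fit that tests it. The main count of 3435 was 3432 with DESeq2 size factors, 3580 with DESeq2, 3525 with limma-voom, 3187 without a filter and 3117 with at least 50 counts in 10 libraries. It was 2249 at an adjusted p below 0.01, of which 1003 were lower. Wild-type libraries alone gave 1611 (891 higher, 720 lower) and knockin libraries alone 1701 (832 higher, 869 lower), with fewer libraries by construction. Without 1 library the count ran from 3030 (wild-type PBS replicate 3) to 3542, with 1527 to 1923 higher, 1407 to 1632 lower and 990 to 1326 called in neither genotype. Of the 1235 genes called in neither genotype, 802 to 1075 were still called without 1 library and 707 without the choroid-rich libraries. At an adjusted p below 0.01 (edgeR), 272 of them were still called. With each genotype fitted on its own 10 libraries, 1357 genes were called in neither genotype, and 1110 of these were among the 1235. In all, 2935 genes were called without the choroid-rich libraries (1596 higher, 1339 lower). Without the liver-rich libraries 3672 were called (1829 higher, 1843 lower). Rises and falls were also nearly even with at least 50 counts in 10 libraries (1566 and 1551) and without wild-type PBS replicate 3 (1527 and 1503). Same-numbered libraries of different groups correlated at -0.108 to 0.249 in their deviations, with 5 of 30 pairs over 0.1. Their median was 0.015, against -0.0055 for libraries of other numbers. Of 20 libraries, 7 correlated best with their own number. Such weak correlations cannot settle whether the numbers pair the mice, and the main fit did not pair them. With the replicate block 3438 genes were called. Directions reversed for mt-Co2 in knockin libraries alone (-0.092), Cd74 (0.044) and Lingo4 (0.14) in wild-type libraries alone, and Prox1 in knockin libraries alone (-0.015) and without the liver-rich libraries (-0.00030). The smallest called log2 fold change was 0.0585.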
